A study of Saccharomyces cerevisiae with 6 samples.

Results

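The 38 genes described here encode enzymes that make histidine, threonine, the branched-chain amino acids, lysine, the aromatic amino acids and serine in Saccharomyces cerevisiae, budding yeast. They were taken by systematic name from a fixed list of 38, all of which were found among the 5560 genes of the deposited tables, and the genes of arginine synthesis were left out. By pathway they are 6 genes of histidine, 5 of threonine, 10 of branched-chain, 7 of lysine, 8 of aromatic and 2 of serine synthesis. The rule that picks them uses no measured value.

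Yeast cells switch many of these genes together. When an amino acid runs short, uncharged transfer RNA activates the kinase Gcn2, translation of the GCN4 messenger rises through its short upstream reading frames, and the activator Gcn4 turns on enzymes of most amino acid pathways at once. This response is called general amino acid control. Single pathways also have regulators of their own, such as Leu3 for leucine and Lys14 for lysine, each of which senses a pathway intermediate.

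The series used SLAM-seq, in which RNA made in the presence of 4-thiouracil (4TU) carries a mark that is read as T>C conversions after alkylation, to find targets of nonsense-mediated mRNA decay from changes in half-life. The wild type was BY4741, a common haploid strain with mating type a, and the deletion was the same background without UPF3, which encodes a core factor of that decay pathway. Each genotype had 3 cultures, which the submitters call biological triplicates, and each culture gave 1 unlabelled library (DMSO) and 6 labelled ones at mean chase times of 0, 1.11, 3.92, 7.85, 17.9 and 57.7. The files give no time unit, and minutes are assumed. No source used here states the growth medium, the 4TU dose or the length of labelling.

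All cultures share the auxotrophies of BY4741, in which LEU2, URA3 and MET17 are deleted and HIS3 in part, so the strain cannot finish the histidine and leucine pathways described here. LEU2 had 0 to 2.66 and MET17 0 to 0.203 CPM, reads scaled to a fixed library total, in all 42 libraries, URA3 had 4.87 to 21.3 and HIS3 kept 80.2 to 217. The 6 markers of a cells summed to 2964 to 8708 CPM in wild type and 1903 to 6050 in the deletion. The 4 markers of alpha cells summed to 17.9 to 35.0 in wild type and 41.0 to 73.1 in the deletion. Of these the alpha pheromone gene MF(ALPHA)1 had 4.37 or less and MF(ALPHA)2 1.6 or less. STE3 had 5.93 to 19.2 in wild type and 11.1 to 36.3 in the deletion, and SAG1 5.03 to 22.3 and 9.26 to 53.8. In labelled libraries summed per culture, both were higher in every deletion culture than in every wild-type culture. Of the a markers, MFA1, BAR1, AGA2 and ASG7 were lower in every deletion culture, and MFA2 and STE2 overlapped. The part of these markers in the genotype results was not tested. UPF3, the label check, had 9.97, 23.2 and 21.7 CPM in wild type and 2.1, 2.93 and 2.42 in the deletion before labelling (values per culture are given for replicates 1, 2 and 3 in that order throughout). Every deletion library lay below every wild-type culture, although some reads remained in the gene's 3′ window. Libraries held 11045419 to 23761767 reads, and the members had 26 reads or more in every library, with mean counts per gene from 430.2 to 13883. All 38 passed the filter on low counts in every read comparison.

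Levels between genes are compared per kilobase of counting window, since the libraries read 3′ ends. In unlabelled wild type the highest was HOM6 (YJR139C, chromosome X, 689445 to 690524, build R64), homoserine dehydrogenase of threonine synthesis, with 2041 ± 166 CPM per kb (SD, n = 3). HOM2, which makes the substrate of HOM6, followed with 1248 ± 97.2, and ARO4, the entry enzyme of the aromatic pathway, with 931 ± 257. At the low end stood TRP3, a bifunctional enzyme of tryptophan synthesis, with 43.8 ± 28.9, HIS6 with 48.0 ± 14.4 and HOM3 with 74.1 ± 34.2. HOM3 is aspartate kinase, the first step towards threonine, so the top and near-bottom levels belonged to 1 short pathway. ARO4 and HIS1 (926 ± 125) did not differ beyond their spread, nor did HOM3 and LYS2 (82.4 ± 39.4).

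In 4 steps, yeast keeps a pair of enzymes for 1 reaction, and in 3 of the pairs the levels of the partners overlapped over the libraries. The DAHP synthases that open the aromatic pathway were furthest apart: ARO4 had 931 ± 257 CPM per kb in unlabelled wild type and ARO3 131 ± 45.0. Of the aminotransferases of the branched-chain pathways, mitochondrial BAT1 had 516 ± 338 and cytosolic BAT2 120 ± 42.4. The α-isopropylmalate synthases LEU4 and LEU9 had 347 ± 151 and 138 ± 59.1, and the homocitrate synthases LYS20 and LYS21, which open the lysine pathway, 607 ± 274 and 291 ± 48.5. Over the 6 unlabelled libraries LEU9 ran from 73.5 to 267 and LEU4 from 185 to 492, BAT2 from 57.2 to 164 and BAT1 from 127 to 737, and LYS21 from 245 to 342 and LYS20 from 295 to 810. ARO3 (79.3 to 221) lay below every ARO4 library (637 to 1228). These ranges include the spread between cultures, and the order of the partners within single libraries was not tested.

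Reads of these genes stood further apart between replicate 1 and the other replicates than between the genotypes. In replicate 1 of both genotypes, 17 of 38 members (44.7%) had a log2 ratio below −1 in labelled CPM, replicate 1 over the mean of replicates 2 and 3, against 10.6% of 5555 genes. The members' median ratio was −0.82 in wild type and −1.45 in the deletion, where all genes had 0.00 and −0.13. The genotypes ran alike: 25 members were lower in replicate 1 of both, 12 higher in both, and HOM2 lay at 0.01 and −0.01.

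**Figure D1:**
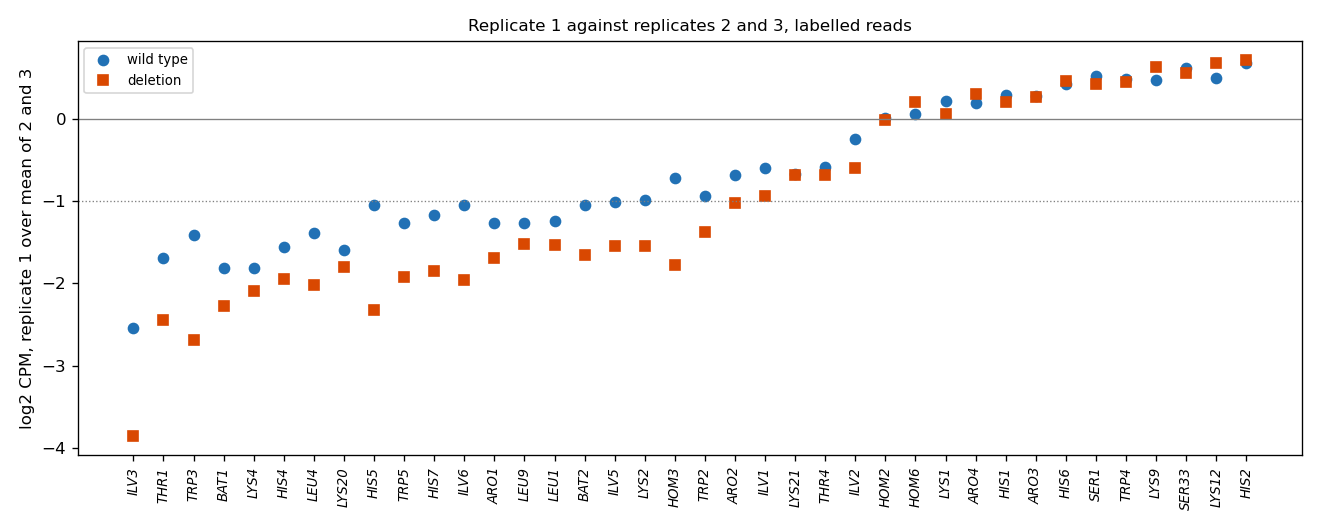
Log2 ratio of labelled CPM, replicate 1 over the mean of replicates 2 and 3 (vertical axis), for each of the 38 genes (horizontal axis, ordered by the mean of both genotypes), in wild type (circles) and deletion (squares); the dotted line marks a log2 ratio of −1. ILV3 stands lowest in both genotypes, at −2.55 and −3.86, and HIS2 highest, at 0.68 and 0.72.

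ILV3 (YJR016C, chromosome X, 464451 to 466208), dihydroxyacid dehydratase of the branched-chain pathways, was the extreme. Its unlabelled libraries had 12.4, 237 and 185 CPM in wild type and 9.93, 139.6 and 108 in the deletion. Replicate 1 lay far below the others in both genotypes, and the genotypes overlapped. Its labelled reads gave log2 differences of −2.55 in wild type and −3.86 in the deletion. THR1, homoserine kinase, had −1.69 and −2.44, and BAT1 −1.81 and −2.28. HIS4 (YCL030C, chromosome III, 65934 to 68333), which encodes a trifunctional histidine enzyme and is the textbook target of Gcn4, had −1.55 and −1.95.

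Members of 1 pathway did not all move the same way. In the lysine pathway LYS4, homoaconitase, had −1.81 and −2.09 while LYS9, a saccharopine dehydrogenase, had 0.48 and 0.64. In histidine synthesis HIS4, HIS7 and HIS5 were lower in replicate 1, and HIS1, HIS2 and HIS6 were higher. Both serine genes were higher, SER1 by 0.52 and 0.42 and SER33 by 0.61 and 0.56. GCN4 went with the higher genes, with 1563, 1069 and 1016 CPM in wild type and 1816, 979.7 and 1029 in the deletion over the labelled libraries. Replicate 1 had more GCN4 reads in both genotypes, and Gcn4 protein, which is set mainly by translation, was not measured. What set replicate 1 apart was not tested. The 7 library barcodes used for wild-type replicate 1 recur in deletion replicate 3, as do the 7 used for deletion replicate 1 among those for its replicate 2.

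The first comparison between genotypes asked whether these genes differed in level without UPF3 before any label. None passed: 0 of 38 were higher and 0 lower (edgeR quasi-likelihood test with Benjamini-Hochberg adjustment over all genes), where 3.23% of 5509 genes were higher and 0.0726% lower (3.3% in either direction). At an unadjusted p under 0.05 there were also 0 and 0 members, and DESeq2 called 0 and 0. The members' median log2 change was −0.05, against −0.04 over all genes, with single values from −0.66 in ILV3 to 0.72 in LEU9. With 1 culture left out, ILV3 ran from −1.30 to −0.13 and LEU9 from 0.42 to 1.01, so both sizes moved with the culture left out and kept their sign. Such a fit keeps the same-numbered culture of the other genotype, so these ranges include the difference between replicates. These are bulk libraries scaled to their own totals, so they compare shares of reads, and a change in total mRNA per cell is not seen. A lower share in all cells and one in part of the cells cannot be told apart. The p-values measure the spread between the 3 cultures of a genotype.

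LEU9 had the lowest p. Its unlabelled libraries had 46.8, 96.2 and 121 CPM in wild type and 88.2, 155 and 170.0 in the deletion. Each deletion culture lay above its same-numbered wild-type culture, but replicate 1 of the deletion lay below wild-type replicates 2 and 3 (log2 change 0.72, SE 0.42, adjusted p = 0.668). THR4, threonine synthase, had 378, 428 and 415 CPM in wild type and 249.9, 318 and 363 in the deletion. Its groups did not overlap, with every deletion culture lower, where 18.7% of genes had groups apart in one or the other direction, and it did not pass (log2 change −0.33, SE 0.23, adjusted p = 0.799). HOM6 had 1236, 1174 and 1374 CPM in wild type and 925, 1005 and 1185 in the deletion, with overlapping groups (log2 change −0.22, SE 0.19, adjusted p = 0.905).

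Same-numbered cultures deviated together in reads, so the fit was also made with the replicate number as a block, and some calls changed. With the block, edgeR called LEU9 higher in the unlabelled libraries (log2 change 0.75, adjusted p = 0.00376) and ILV3 (−0.59, 0.0212) and TRP3 (−0.73, 0.0288) lower. Over all genes the blocked fit called 13.2% higher and 2.21% lower, beside 1 and 2 of 38 members. Without replicate 1 of both genotypes, edgeR called the same 3 members, LEU9 at 0.66, ILV3 at −0.69 and TRP3 at −0.64, against 12.5% of genes higher and 1.65% lower.

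The labelled libraries, summed per culture, gave the same count for the members. Of 38, 0 were higher and 0 lower by edgeR, where 5.58% of 5555 genes were higher and 0.18% lower (5.76% in either direction). An unadjusted p under 0.05 was reached by 0 members, and DESeq2 called 0. The median log2 change was −0.10 for the members and −0.01 for all genes. By pathway the medians ran from −0.20 in serine synthesis to 0.05 in branched-chain synthesis.

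HIS1 (YER055C, chromosome V, 264892 to 265785), which catalyses the first step of histidine synthesis, had 614, 502 and 501 CPM in wild type and 495, 405 and 452 in the deletion over the labelled libraries. All 3 deletion cultures lay below all 3 wild-type cultures, where 22.8% of genes had groups apart, without passing the test (log2 change −0.26, SE 0.18, adjusted p = 0.676 by edgeR). HOM3 had 46.2, 72.5 and 79.8 CPM in wild type and 16.6, 47.9 and 68.3 in the deletion. Its groups overlapped (log2 change −0.58, SE 0.51, adjusted p = 0.807), and the deletion was lower in each same-numbered pair. LEU9 had 53.8, 128 and 131 CPM in wild type and 65.2, 186 and 190.3 in the deletion, again higher in each pair (log2 change 0.50, SE 0.51, adjusted p = 0.866). With the replicate block, edgeR called LEU9 higher (0.45, adjusted p = 0.0133) and HOM3 (−0.76, 0.0371) and TRP3 (−0.98, 0.0318) lower, against 19.9% of genes higher and 7.54% lower. Without replicate 1 of both genotypes only LEU9 was called among the members (0.56, adjusted p = 0.00206), where 22.9% of genes were higher.

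**Figure D2:**
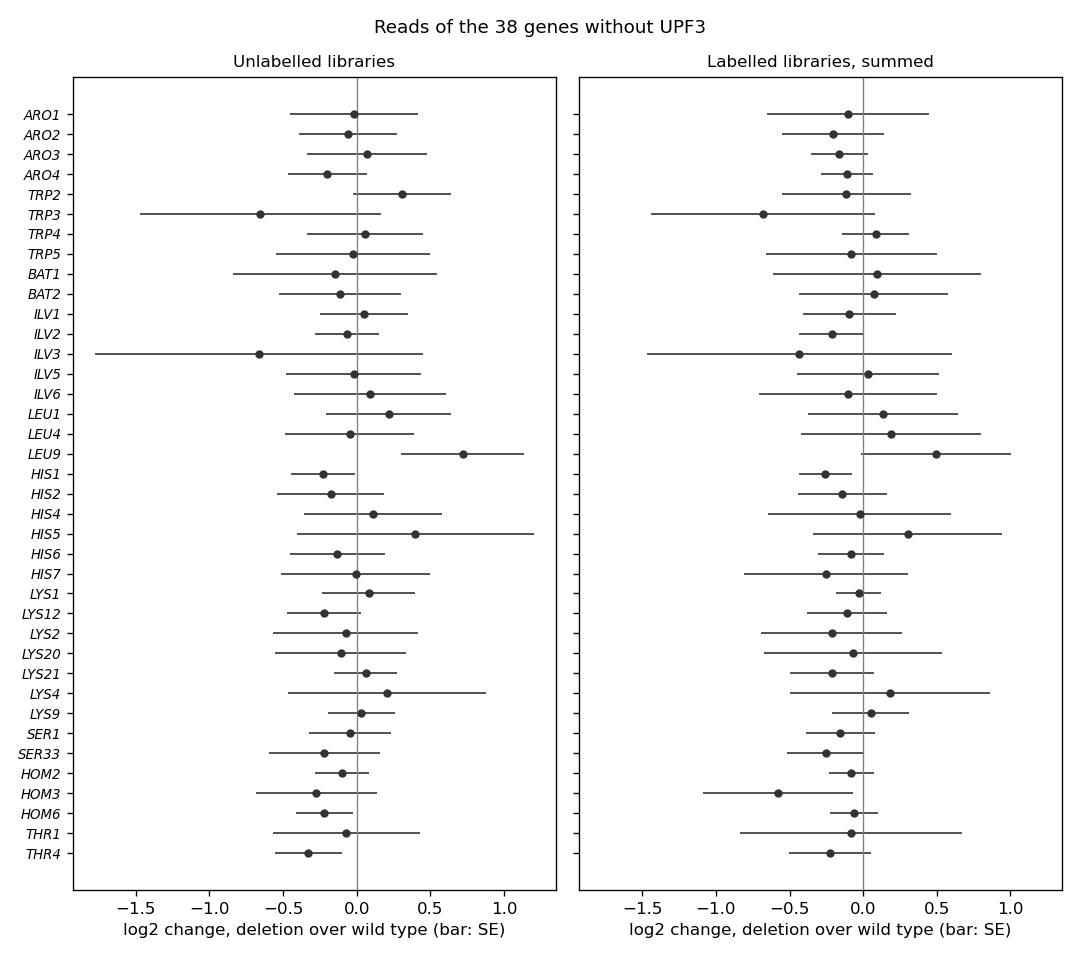
Log2 change in reads, deletion over wild type (horizontal axis), of each of the 38 genes (rows, grouped by pathway) in the unlabelled libraries (left) and in the labelled libraries summed per culture (right); points are the edgeR estimates and bars 1 SE, n = 3 cultures per genotype. Estimates run from −0.66 in ILV3 to 0.72 in LEU9 before labelling, and none passed the test.

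HIS4 and GCN4 showed no difference by genotype that passed the test. HIS4 had 98.7, 263 and 222 CPM in wild type and 109.6, 273 and 214 in the deletion before labelling and 75.3, 216 and 228 CPM in wild type and 58.2, 238 and 214 in the deletion over the labelled libraries. In both sets replicate 1 was lowest in each genotype, and the genotypes overlapped (log2 change 0.11, SE 0.47, adjusted p = 0.993 and log2 change −0.02, SE 0.62, adjusted p = 1 by edgeR). GCN4 had 1872, 832 and 791 CPM in wild type and 2226, 853 and 1100.0 in the deletion before labelling (log2 change 0.29, SE 0.45, adjusted p = 0.993). Among the 18 regulators 0 were called in either comparison by edgeR. At an unadjusted p under 0.05 there were 2 and 1 higher and 0 and 0 lower, a threshold whose share over all genes is not given here. Of the 8 arginine genes CPA1 was called higher before labelling (1.65) and ARG8 over the labelled libraries (1.22), and of the other synthesis genes 0 of 27 and 0 of 28 were called.

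The pairs kept their order of level in the deletion. Unlabelled deletion cultures had 787 ± 195 CPM per kb of ARO4 and 135 ± 75.3 of ARO3, 440 ± 241 of BAT1 and 105 ± 42.4 of BAT2, 319 ± 116 of LEU4 and 216 ± 68.5 of LEU9, and 535 ± 181 of LYS20 and 293 ± 33.0 of LYS21 (SD, n = 3). The gap between the means of LEU4 and LEU9 was smaller than the spread of LEU4 between cultures in the deletion. The change of that gap between genotypes was not tested.

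Reads of some members changed along the chase. No course without a chase was analysed here, so the chase, time in culture and handling cannot be told apart. Reads are compared within each culture from here on, so differences in starting level between cultures drop out, while differences in the change itself stay. All comparisons with chase time 0 share the same 6 libraries at time 0, and each is given on its own. The label step came first: from the unlabelled to the first chase library, edgeR called 1 member higher and 1 lower, where 4.01% of 5515 genes were higher and 1.9% lower (5.91% in either direction). The members' median log2 change was −0.09, against −0.01 over all genes.

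ILV3 was the member that rose. From the unlabelled values given above it went to 66.7, 359 and 333 CPM in wild type and 13.7, 239 and 236 in the deletion at chase time 0, higher in 6 of 6 cultures (log2 change 1.02, SE 0.23, adjusted p = 0.0349 by edgeR), and wild-type replicate 1 moved most. HOM2, aspartate semialdehyde dehydrogenase, went from 788, 702 and 817 to 562, 534 and 569.6 CPM in wild type and from 783, 597 and 698 to 592, 467 and 494 in the deletion, lower in 6 of 6 cultures, with log2 changes from −0.52 to −0.36 (log2 change −0.45, SE 0.11, adjusted p = 0.0417). HIS4 was lower in 6 of 6 cultures too but did not pass (log2 change −0.54, SE 0.17, adjusted p = 0.0942). Neither call was stable to single cultures: ILV3 had an adjusted p of 0.0898 to 0.151 by edgeR without any one of wild-type replicates 2 and 3 and deletion replicates 2 and 3. Without deletion replicate 1, edgeR called 8 members higher and 8 lower. Calls over all genes moved too, from 20 to 770 higher and 14 to 680 lower with 1 culture left out. With all cultures they were 221 and 105 of 5515.

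**Figure D3:**
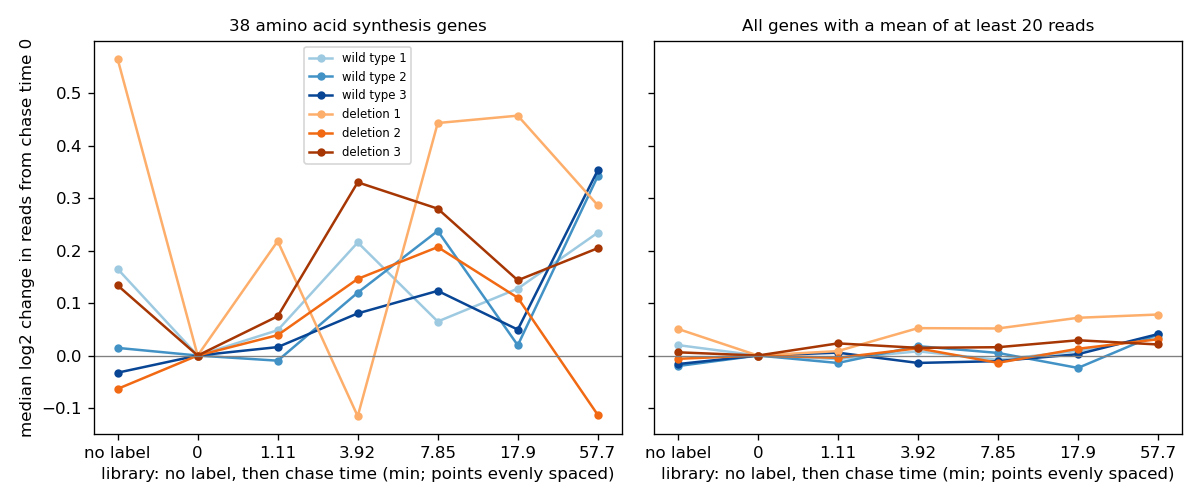
Median log2 change in reads from chase time 0 (vertical axis) in each culture (lines) over the unlabelled library and the 6 chase points (horizontal axis, evenly spaced), for the 38 genes (left) and for all genes with a mean of at least 20 reads (right). At 7.85 the members' medians lie between 0.06 and 0.44 in the 6 cultures, while the medians of all genes lie between −0.01 and 0.05.

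A rise was present by chase time 3.92, a comparison added after the values were seen. Of 38 members, edgeR called 8 higher and 0 lower than at time 0, where 7.99% of 5521 genes were higher and 4.6% lower (12.6% in either direction). They were LYS1, LYS20, HIS4, HIS7, SER1, HIS1, BAT2 and LEU4, 3 of them in histidine and 2 in lysine synthesis. The members' median was 0.12, against 0.01 over all genes.

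LYS1 (YIR034C, chromosome IX, 419615 to 420736), the saccharopine dehydrogenase of the last step to lysine, went from 54.2, 59 and 58.5 to 124, 98.8 and 89.8 CPM in wild type and from 72.2, 59.1 and 53.9 to 108, 85.9 and 92.1 in the deletion between time 0 and 3.92. It was higher in 6 of 6 cultures, with the time points not overlapping (log2 change 0.73, SE 0.09, adjusted p = 1.68e-04 by edgeR). LYS20 (YDL182W, chromosome IV, 133437 to 134723) went from 98.2, 378 and 392 to 242, 602 and 622 CPM in wild type and from 82.9, 374 and 313 to 104, 592 and 508 in the deletion. Replicate 1 started lower in both genotypes, and all 6 cultures rose (log2 change 0.71, SE 0.10, adjusted p = 5.36e-04). HIS4 went from 63.4, 193 and 209 to 122, 299 and 287 CPM in wild type and from 40.3, 224 and 169 to 80.1, 302 and 277 in the deletion, also higher in 6 of 6 (log2 change 0.68, SE 0.09, adjusted p = 2.91e-04). These 3 and HIS7 (0.66) were called by edgeR whichever culture was left out, and the other 4 were not. The library of deletion replicate 1 at this point had 0.916% multi-mapping reads, where the culture's other libraries had 0.353% to 0.65%. Without that culture edgeR called 12 members higher and 0 lower. Over the fits with 1 culture left out, all genes called ran from 296 to 555 higher and 130 to 492 lower. With all cultures they were 441 and 254 of 5521.

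At chase time 7.85 edgeR called 11 of 38 members higher and 0 lower, where 13.1% of 5521 genes were higher and 12.3% lower (25.4% in either direction). The median was 0.24 for the members and −0.02 for all genes. Serine synthesis had 2 of 2 higher, branched-chain 3 of 10, lysine 2 of 7, histidine 2 of 6, aromatic 1 of 8 and threonine 1 of 5. The share of members called in either direction was near that of all genes, and the members' calls were all upwards. At an unadjusted p under 0.05 there were 16 higher and 1 lower. All genes at that looser threshold make up at least the 25.4% above, and their exact share is not given here.

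LYS20 rose most, from the values above to 241, 668 and 726 CPM in wild type and 255, 667 and 585 in the deletion at 7.85. It was higher in 6 of 6 cultures, from 0.82 to 1.62 on the log2 scale, and rose 2.06-fold in the fit (log2 change 1.05, SE 0.12, adjusted p = 1.64e-04 by edgeR). Its partner LYS21 was higher in 6 of 6 cultures without passing (log2 change 0.33, SE 0.14, adjusted p = 0.102). SER33 (YIL074C, chromosome IX, 221081 to 222490), phosphoglycerate dehydrogenase of serine synthesis, went from 75.3, 47 and 50.9 to 133, 72.8 and 72.2 CPM in wild type and from 62.7, 38 and 40.5 to 102, 52.2 and 60.8 in the deletion. All 6 cultures rose (log2 change 0.60, SE 0.09, adjusted p = 6.77e-04), and replicate 1 held more SER33 than the other cultures at both points. LYS1 stood at 116, 86.1 and 77.2 CPM in wild type and 96, 87.2 and 84.6 in the deletion, higher in 6 of 6 cultures, most in wild-type replicate 1 (log2 change 0.60, SE 0.11, adjusted p = 0.00264).

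The other calls at 7.85 were HIS1 (0.57), ILV2 (0.57), SER1 (0.49), BAT2 (0.45), LEU9 (0.45), HIS6 (0.38), TRP4 (0.36) and HOM3 (0.36). Each of these was higher in 6 of 6 cultures but HIS6, in 5. As with LYS20 and LYS21, 1 gene of a same-reaction pair was called and the other not for BAT2 and BAT1 (log2 change 0.24, SE 0.11, adjusted p = 0.154) and for LEU9 and LEU4 (log2 change 0.32, SE 0.15, adjusted p = 0.171), while neither ARO3 nor ARO4 was called. The difference within a pair was not tested. HIS4 was higher in 5 of 6 cultures at 63.1, 244 and 227 CPM in wild type and 79.3, 261 and 221 in the deletion and did not pass (log2 change 0.32, SE 0.12, adjusted p = 0.0753), though edgeR called it without wild-type replicate 1 (0.40) and without deletion replicate 1 (0.22). With single cultures left out, edgeR called 8 to 15 members higher, and LYS20, SER33, HIS1, SER1, LYS1, TRP4, HOM3 and ILV2 every time. Without replicate 1 of both genotypes it called 22 higher and 2 lower, and more of all genes were called in both directions too. With single cultures left out, all genes called ran from 510 to 1088 higher and 384 to 958 lower. With all cultures they were 722 and 679 of 5521.

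**Figure D4:**
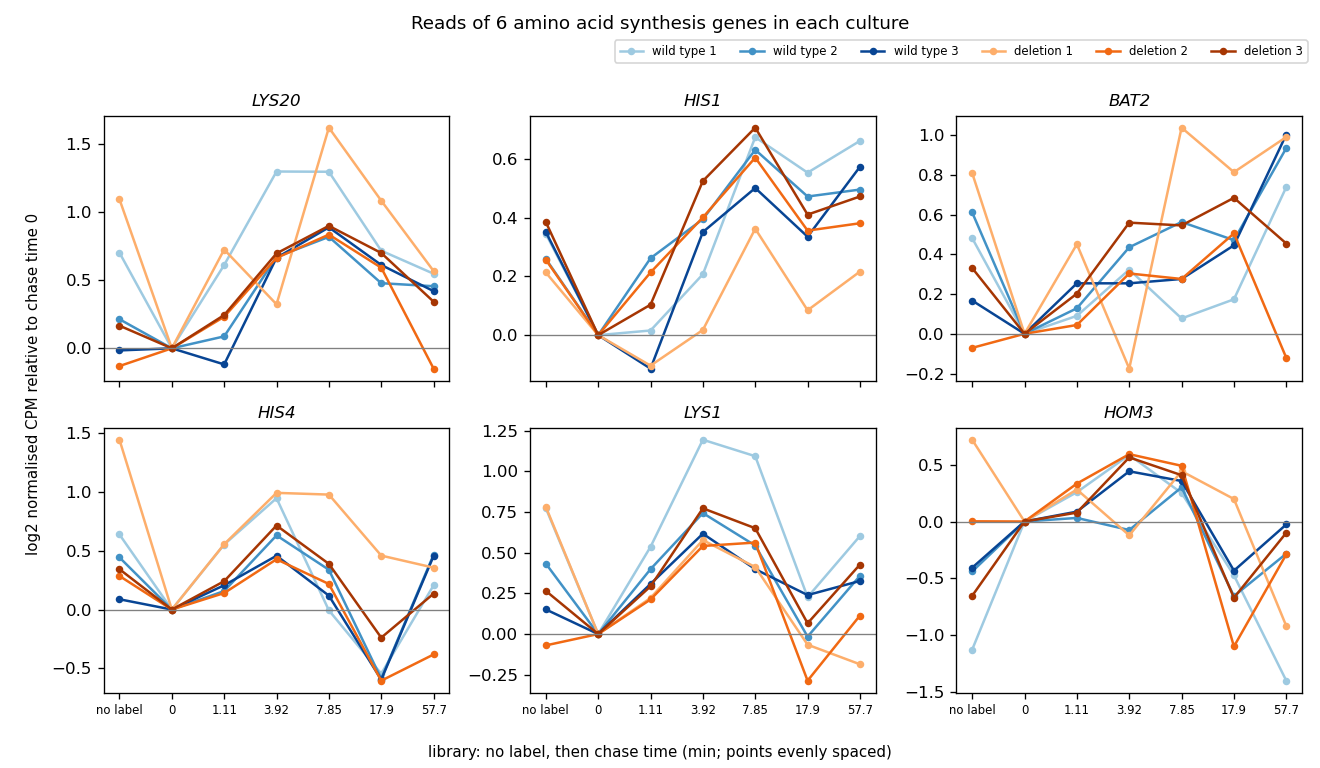
Log2 CPM relative to chase time 0 (vertical axis, own scale per panel) in each culture (lines) over the unlabelled library and the 6 chase points (horizontal axis, evenly spaced) for LYS20, HIS1, BAT2, HIS4, LYS1 and HOM3. LYS20, HIS1 and LYS1 are above 0 in all 6 cultures at 7.85, and HIS4, LYS1 and HOM3 are lower at 17.9 than at 7.85 in all 6.

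The members fell into several courses after that. Between 7.85 and 17.9, a comparison added after the values were seen, edgeR called 2 members higher and 11 lower, where 14.3% of 5511 genes were higher and 13.4% lower (27.8% in either direction). HOM3 went from 55, 97 and 95.9 to 33.3, 49.95 and 55.5 CPM in wild type and from 22.9, 58.7 and 78.7 to 19.3, 19.5 and 37.2 in the deletion between 7.85 and 17.9. It was lower in 6 of 6 cultures, least in deletion replicate 1 (log2 change −0.90, SE 0.14, adjusted p = 0.00104 by edgeR). SER33 went to 61.9, 44.7 and 45.9 CPM in wild type and 71.9, 37 and 34.5 in the deletion, lower in 6 of 6 (log2 change −0.71, SE 0.09, adjusted p = 2.40e-04). HIS4 went to 43.4, 129 and 138 CPM in wild type and 55.4, 147 and 143 in the deletion, lower in 6 of 6 by 0.52 to 0.93 on the log2 scale (log2 change −0.69, SE 0.06, adjusted p = 4.64e-05).

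LYS1 (−0.58), HIS7 (−0.38), LYS20 (−0.36), ILV2 (−0.34), ARO3 (−0.33), TRP4 (−0.24), HIS1 (−0.21) and SER1 (−0.19) were also called lower. THR1 (0.40) and ILV6 (0.38), the regulatory subunit of acetolactate synthase, were called higher, in 5 and 4 of 6 cultures. Of the 10 branched-chain members ILV2 alone was called lower; LEU4 had an estimate of −0.19 without passing (adjusted p = 0.246 by edgeR). Of the 11 falls, HIS7 was lower in 5 of 6 cultures and each of the others in 6. With single cultures left out, edgeR called 8 to 11 members lower and 0 to 2 higher. All genes called ran from 525 to 692 lower and 534 to 829 higher in those fits. With all cultures they were 740 and 790 of 5511.

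At chase time 17.9 edgeR called 9 of 38 members higher than at time 0 and 1 lower, where 12% of 5518 genes were higher and 11.2% lower (23.2% in either direction). LYS20 was at 161, 527 and 599 CPM in wild type and 176, 564 and 509 in the deletion, still above its time 0 in 6 of 6 cultures (log2 change 0.71, SE 0.10, adjusted p = 8.98e-04). BAT2 went from 42.1, 79.1 and 75.7 to 47.4, 109.7 and 103 CPM in wild type and from 24, 106 and 70.9 to 42.2, 150.5 and 114 in the deletion, higher in 6 of 6 (log2 change 0.53, SE 0.10, adjusted p = 0.00584). LYS4 went from 43.4, 119 and 117 to 50.1, 137 and 162 CPM in wild type and from 17, 165 and 116 to 64.6, 196 and 184 in the deletion, also higher in 6 of 6 (log2 change 0.61, SE 0.20, adjusted p = 0.0492). Deletion replicate 1 rose most, by 1.93 on the log2 scale, and without it the LYS4 change was 0.37.

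LEU9 (0.52), HIS6 (0.48), HIS1 (0.38), BAT1 (0.35), ILV6 (0.35) and SER1 (0.31) were the other calls upwards, so 4 of 10 branched-chain members were higher. LEU9 had 0.31 without deletion replicate 1. HOM3 was the fall, lower in 5 of 6 cultures (log2 change −0.52, SE 0.14, adjusted p = 0.023), and HIS4 was lower in 5 of 6 without passing (log2 change −0.35, SE 0.14, adjusted p = 0.0953), but was called without deletion replicate 1 (−0.51). The number of calls hung on single cultures. Without any one culture other than deletion replicate 1, edgeR called 2 to 3 members higher, and without that one 11 higher and 3 lower. All genes called ran from 294 to 1100 higher and 339 to 1047 lower in these fits. With all cultures they were 664 and 617 of 5518. LYS20 and BAT2 were called every time.

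At the last point, 57.7, edgeR called 5 of 38 members higher than at time 0 and 1 lower, where 6.16% of 5516 genes were higher and 6.58% lower (12.7% in either direction). LEU9 went from 51.1, 104 and 114 to 64.8, 172 and 175 CPM in wild type and from 32.4, 162 and 162 to 82.3, 197 and 193 in the deletion, higher in 6 of 6 cultures and most in deletion replicate 1 (log2 change 0.58, SE 0.15, adjusted p = 0.0319). SER1, phosphoserine aminotransferase, went from 323, 256 and 241 to 497, 341 and 331 CPM in wild type and from 325, 200.1 and 209 to 441, 305 and 289 in the deletion, higher in 6 of 6 by 0.41 to 0.62 (log2 change 0.49, SE 0.09, adjusted p = 0.00783). HIS1 went from 485, 393 and 416 to 767, 555 and 618 CPM in wild type and from 476, 305 and 323 to 553, 397 and 449 in the deletion, higher in 6 of 6 (log2 change 0.46, SE 0.10, adjusted p = 0.0141).

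The DAHP synthases were called in opposite directions at that point. ARO3 (YDR035W, chromosome IV, 521816 to 522928) went from 96.9, 81.9 and 91.2 to 83.1, 51.3 and 53.9 CPM in wild type and from 96.5, 56.5 and 72.9 to 59.5, 44.6 and 54.9 in the deletion and was lower in 6 of 6 cultures (log2 change −0.53, SE 0.11, adjusted p = 0.0143 by edgeR). ARO4 (YBR249C, chromosome II, 716882 to 717994) went from 459.9, 419 and 394 to 664, 539.8 and 592 CPM in wild type and from 564, 329 and 328 to 552, 442 and 447 in the deletion and was higher in 5 of 6, deletion replicate 1 being the exception (log2 change 0.38, SE 0.11, adjusted p = 0.046). The remaining call was BAT2 (0.66, higher in 5 of 6). SER1 was called whichever culture was left out. Of the 6 such fits, ARO3 was called in 4, HIS1, BAT2 and LEU9 in 2 each, and ARO4 in 1. Without deletion replicate 1, edgeR called 9 members higher and 1 lower, and the lowest count in any such fit was 1 higher. All genes called ran from 141 to 469 higher and 199 to 425 lower in these fits. With all cultures they were 340 and 363 of 5516. HIS4 was back at 73.1, 267 and 287 CPM in wild type and 51.6, 172 and 185 in the deletion (log2 change 0.20, SE 0.13, adjusted p = 0.341).

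Arginine genes, other amino acid synthesis genes and regulators outside the 38 were also called at 7.85. Of the arginine genes 8 of 8 were higher by edgeR, among them CPA1 (1.49) and ARG1 (1.34). Of 27 other synthesis genes 12 were higher and 0 lower, among them SER3 (1.11), which shares its reaction with SER33, SHM2 (1.01), a serine hydroxymethyltransferase, and GLY1 (0.75), threonine aldolase. Of 18 regulators 3 were higher: BAS1 (0.88), an activator of histidine and purine genes, GCN3 (0.31), a subunit of the initiation factor eIF2B, and LYS14 (0.29). BAS1 went from 27.6, 39.6 and 38.1 to 47.4, 76.9 and 81.5 CPM in wild type and from 28.3, 34.2 and 36.5 to 51.7, 57.2 and 67.2 in the deletion between time 0 and 7.85. By 17.9 it was at 27.2, 25.1 and 29.8 CPM in wild type and 21.6, 22.9 and 25.5 in the deletion, below its time 0 in 6 of 6 cultures (log2 change −0.41, SE 0.11, adjusted p = 0.0222).

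GCN4 reads did not pass the test at any of these points. It went from 1419, 1039 and 975 to 1735, 1129 and 1034 CPM in wild type and from 2392, 803 and 855 to 1605, 1027 and 1039.7 in the deletion between time 0 and 7.85 (log2 change 0.08, SE 0.13, adjusted p = 0.695 by edgeR). At 3.92 its log2 change was −0.04, at 17.9 0.17 and at 57.7 0.20. Replicate 1 held the highest GCN4 values in both genotypes at every time point.

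Whether the chase course differed by genotype was tested as an interaction, and 0 of 38 members passed at any of 6 comparisons by edgeR, where 0.0362% of genes were called at 17.9, 0.0181% between 7.85 and 17.9 and 0% in the other 4. At an unadjusted p under 0.05 there were 0 members for the label step, 1 at 3.92, 2 at 7.85, 3 at 17.9, 0 between 7.85 and 17.9 and 2 at 57.7, and DESeq2 called 0 in each. The share of all genes at that unadjusted threshold is not given here, so no result is read from these counts. The widest differences of log2 change, deletion minus wild type, were −1.42 for THR1 and −1.11 for ILV6, both at 57.7 (adjusted p = 0.876 for both by edgeR). THR1 had 60.5, 349.6 and 319.6 CPM in wild type and 27, 62.8 and 122 in the deletion at that point. Wild-type replicates 2 and 3 were high and the other 4 cultures low.

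Decay was read from the T>C rate, the share of covered T positions that were converted, less the rate of the unlabelled library of the same culture. At time 0 the median member carried 2.53% to 2.86% converted T in the 6 cultures, and the median gene 2.39% to 2.80%. BAT1 had the lowest first label, 1.83% ± 0.369 in wild type (SD, n = 3), and HOM3 the highest, 3.46% ± 0.648. The fewest covered T positions behind a value at time 0 were 466, in TRP3, so its rates are the least precise.

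The members kept more of their first label than the median gene in the middle of the chase. At 7.85 the median member had 62.8% to 73.5% of its first T>C rate left and the median gene 48.5% to 66.7%, with the member higher in 6 of 6 cultures. At 17.9 the median member had 33.3%, 33.5% and 33.6% left in wild type and 43.3%, 36.7% and 38.5% in the deletion, and the median gene 22.7% to 24.8% and 27.1% to 31.2%. The member was again higher in 6 of 6, and at 17.9 both medians were higher in every deletion culture than in every wild-type culture, a difference that was not tested. At 57.7 they were 2.30% to 3.26% and 2.33% to 3.52%. A rate is diluted by new unlabelled RNA, and reads of 11 members rose by 7.85, so a rate does not measure decay alone.

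The pathway of threonine held both members that kept little and members that kept much of their first label at 17.9. HOM6 had 91.3% ± 2.05 of its first label left at 7.85 in wild type and 66.7% ± 2.42 at 17.9 (SD, n = 3). HOM3 had 24.3% left at 17.9, and HOM2 56.1%. In the branched-chain pathways ILV5, the reductoisomerase, had 19.0% ± 1.47 left at 17.9 and ILV6 67.0% ± 8.82. HIS4 had 51.6% ± 2.07 left at 7.85 and 29.3% ± 1.02 at 17.9.

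**Figure D5:**
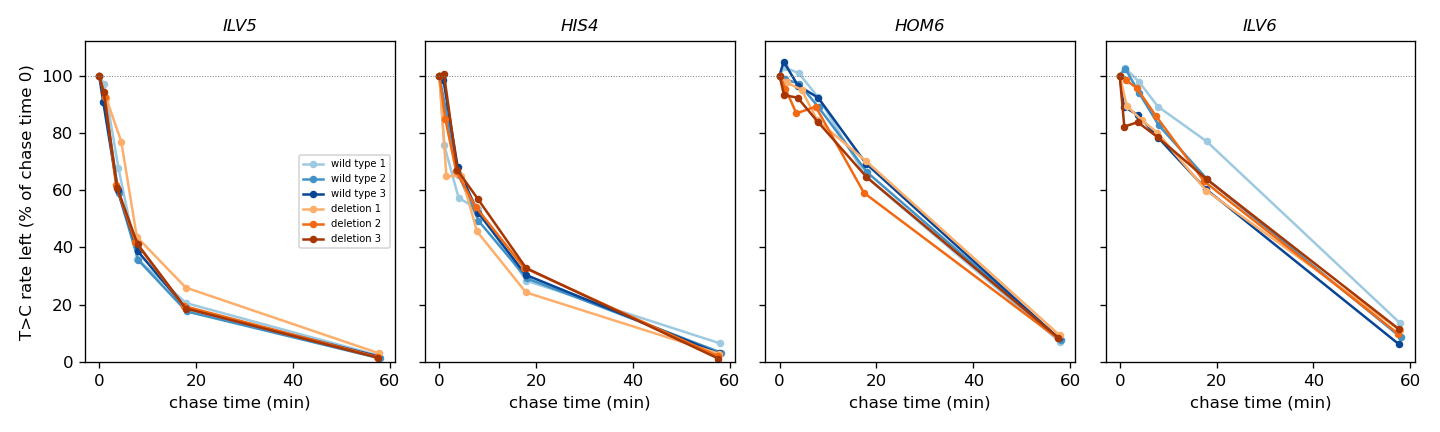
T>C rate left, in percent of the rate at chase time 0 after subtraction of the unlabelled rate (vertical axis), against chase time in minutes (horizontal axis) in each culture (lines) for ILV5, HIS4, HOM6 and ILV6. ILV5 and HIS4 drop early, to means of 19.0% and 29.3% at 17.9 in wild type, while HOM6 and ILV6 keep 66.7% and 67.0%.

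Half-lives were fitted by a single exponential of the rates and by a line of log rate on time. By the exponential, in wild type they ran from 6.15 ± 0.355 minutes in ILV5 to 22.6 ± 0.769 in HOM6 and 22.6 ± 3.5 in ILV6 (SD, n = 3). The members' median was 11.8 minutes and that of all genes 8.58. Over both genotypes, HOM6 and ILV6 lay at the 98.2 and 98.6 percentiles of all genes and ILV5 at the 11. The line gave 11.4 minutes for the members and 11.4 for all genes, so the members' longer median is not seen with that fit. With the line on labelled amount, in which new unlabelled RNA does not dilute the signal, the medians were 10.7 and 10.6 minutes. Without the last point the line gave 11.4 and 8.62. At that point little label was left, and some rates lay at or below the unlabelled rate, such as −0.0790% for LEU9 in wild-type replicate 1. The line leaves such points out, so cultures of 1 gene can be fitted on different points, and it is no equal check of the exponential.

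No member passed the test of half-life between genotypes. By the line, limma called 0 of 38 longer and 0 shorter, with 0 also at an unadjusted p below the threshold of 0.05, where 0% of 5310 genes were called, and by the exponential 0 of 38 (also 0 and 0), where 0.41% of 5366 genes were called longer. The median log2 change was 0.03 for the members and 0.03 for all genes by the line, and 0.14 and 0.16 by the exponential. By the exponential, the deletion cultures lay above all wild-type cultures in 4 members, ARO4, ILV2, HIS4 and HIS5, where 23% of genes did not overlap in either direction. By the line only HOM6 did not overlap, where 12.1% of genes did not.

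The members with the lowest p differed between the fits. By the line HIS4 had 16, 12.2 and 11.6 minutes in wild type and 12, 10.6 and 9.15 in the deletion, with overlapping groups (log2 change −0.32, SE 0.18, adjusted p = 0.869 by limma). By the exponential it had 9.07, 8.5 and 8.56 minutes in wild type and 9.14, 9.33 and 9.34 in the deletion, all deletion cultures longer by a small amount (log2 change 0.09, SE 0.13, adjusted p = 0.779), so the direction depended on the fit. LYS4 had 8.86, 9.78 and 12.1 minutes in wild type and 14.5, 12 and 10.8 in the deletion by the line (log2 change 0.28, SE 0.18, adjusted p = 0.885). HOM3 had 21.4, 11.2 and 8.5 minutes in wild type and 8.44, 12.9 and 4.92 in the deletion, with wild-type replicate 1 far above the other cultures (log2 change −0.65, SE 0.46, adjusted p = 0.885). By the exponential the HOM3 change was 0.22, and SER33 had −0.27 by the line and 0.40 by the exponential, so their directions also depended on the fit.

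By the exponential, HIS5, histidinol-phosphate aminotransferase, had 7.65, 14.1 and 13.7 minutes in wild type and 16.7, 17.1 and 16.9 in the deletion. The groups did not overlap, and wild-type replicate 1 was lowest (log2 change 0.57, SE 0.24, adjusted p = 0.329 by limma). LYS9 had 15, 16.9 and 14.5 minutes in wild type and 16.3, 18.7 and 18.6 in the deletion, with overlap (log2 change 0.21, SE 0.09, adjusted p = 0.352). LYS21 had 6.91, 10.3 and 10.9 minutes in wild type and 15, 10.8 and 11 in the deletion, again with wild-type replicate 1 lowest (log2 change 0.40, SE 0.23, adjusted p = 0.469). GCN4 had log2 changes of −0.06 by the line and 0.11 by the exponential, neither passing.

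Enzymes of the same reaction were set side by side. By the exponential in wild type, BAT1 had 9.73 ± 0.974 minutes and BAT2 14.3 ± 0.165, and BAT1 lay below BAT2 in 6 of 6 cultures. LEU4 had 15.5 ± 1.45 and LEU9 9.14 ± 2.91, but in deletion replicate 1 the order was turned, at 11.6 and 12. LYS20 and LYS21 had 8.94 ± 1.25 and 9.38 ± 2.16, and ARO3 and ARO4 17.0 ± 3.45 and 13.7 ± 0.475, both within their spread. By the line in wild type BAT1 had 9.70 ± 0.744 and BAT2 12.6 ± 1.42.

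The genes outside the 38 whose mean log2 CPM profile over the 42 libraries was most like that of the members were GUA1, IMD3, SSB1, FRS1 and ADE6, with Pearson's r from 0.961 to 0.965. The 42 points are 7 libraries from each of 6 cultures and share the difference between replicate 1 and the others. With each culture's mean taken out, r was 0.81 for GUA1, 0.88 for IMD3, 0.80 for SSB1, 0.71 for FRS1 and 0.80 for ADE6. GUA1 and IMD3 encode enzymes of GMP synthesis and ADE6 one of purine synthesis, SSB1 a ribosome-bound chaperone and FRS1 a subunit of phenylalanyl-tRNA synthetase.

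No member overlaps another annotated gene in the reference table, but many have neighbours within 300 bases, and no source used here says whether reads were counted by strand. Close neighbours include BIK1 for HIS4, YJR015W for ILV3, MGA2 and NRE1 for LYS1, and IML1 and HIR3 for HOM6. The 300 bases were taken from either end of the whole gene, so a neighbour at the 5′ end can lie far from the 3′ window. Whether reads of any neighbour fall in a member's window was not tested.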

How the data were processed

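Reads and T>C conversions were measured in 42 libraries, 7 from each of 3 wild-type and 3 UPF3 deletion cultures. After alkylation, total RNA was sequenced from 3′ ends with a QuantSeq FWD kit, per the labels' protocols. Per the file headers, the authors mapped and counted reads with SlamDunk and collapsed them to 1 line per gene. The deposited read counts and T counts are whole numbers per 3′ window, per the file headers. The deposited conversion rate is a fraction of covered T bases, per the file headers, and was checked against those counts. The genome build is R64, per the submitters' processing notes, and coordinates and symbols come from a RefSeq table of that build.

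The members, the other gene lists and several tests were chosen with earlier results of these data known. The comparisons of chase time 3.92 with 0 and of 17.9 with 7.85 were added after the values were seen. Reads were tested across all genes with edgeR 4.0.16 in R 4.3.3 (quasi-likelihood F test, TMM scaling, filterByExpr), with Benjamini-Hochberg adjustment over all genes and a threshold of 0.05. Comparisons between genotypes used 1 library or 1 sum of the 6 labelled libraries per culture, and those within cultures used culture as a block. All adjusted p-values for reads in the text are from edgeR unless DESeq2 1.42.0 is named, and those for half-lives are from limma 3.58.1. Half-lives came per culture from a line of −log2 rate on time weighted by reads, with the unlabelled rate subtracted, in genes with a mean of at least 20 reads and at least 3 usable points. The alternative was a single exponential. Profiles for likeness are mean log2(CPM + 1). The scripts were tested on simulated data.

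Same-numbered cultures deviated together from their genotype means in reads (r = 0.939, 0.910 and 0.866 for replicates 1 to 3 in the labelled sums, 0.799, 0.800 and 0.579 unlabelled, across 5555 genes), so the numbers pair the cultures there, a pairing that comes from the data. Alternatives were RLE scaling, DESeq2, no filter on low counts, the replicate block, all libraries in 1 fit, each culture left out, and replicate 1 of both genotypes left out. HIS4, GCN4, the same-reaction pairs and, per comparison, the 3 called members with the largest rise and fall whose cultures all moved 1 way (or, with none called, the 3 lowest p) are given in full. Further members were named after their values were seen. A planned search of promoters for motifs was not run.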

Additional observations from a re-analysis of the deposited data

Results flagged for a closer look

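In 11 of 50 sets of 6 within-culture log2 changes, 1 culture lay far from the other 5 by Dixon's test at its 95% value. Chance flags about 1 set in 20 when sets are independent. These sets share the same 6 cultures, and many share the libraries at time 0, so that rate is no test of the 11. Deletion replicate 1 was the culture in 7 of the 11 flagged sets. It was high for ILV2 (1.33) and LEU9 (1.23) at chase time 7.85, and for LYS4 (1.93), LEU9 (1.58) and BAT1 (0.80) at 17.9. It was low for SER1 at 3.92 (−0.17) and for ARO4 at 57.7 (−0.0306), where the other cultures were all above 0. Wild-type replicate 1 was high in the other 4. These were ILV3 after labelling (2.42, the next culture being at 1.13), LYS1 at 3.92 (1.19) and 7.85 (1.09), and HIS7 between 7.85 and 17.9 (0.23, with the other cultures between −0.56 and −0.40). The flagged cultures are the replicate 1 cultures described above, and what sets them apart was not tested.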

How the results depend on the processing

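No named gene's change that passed the test in either setting reversed under any alternative run. Estimates that did not pass changed sign in some settings, among them the half-life changes of HIS4 (−0.32 by the line, 0.09 by the exponential), HOM3 (−0.65 and 0.22) and SER33 (−0.27 and 0.40). Over single genes and settings, 1048 values kept their side of the threshold, 45 passed it and 129 fell short of it. Counts below are higher and lower, and the main read fits tested 5509 to 5555 genes. Some member counts stand without the count of all genes from the same fit, and no result is read from those. DESeq2 called 335 and 33 genes unlabelled, 489 and 75 in the labelled sums, 490 and 252 after labelling (members 3 and 5), 2 members lower at 17.9, and 9 and 2 members at 57.7. With RLE scaling 0 members were lower after labelling. The replicate block gave 727 and 122 genes unlabelled and 1108 and 419 in the labelled sums, each with 1 and 2 members, and 0 genes longer by the exponential. It changed no other member's call. Same-numbered cultures did not deviate together in half-life (r = 0.0518, 0.0252 and 0.0223), where the block called 0 genes. Without replicate 1 of both genotypes there were 691 and 91 genes unlabelled (members 1 and 2), 1271 and 256 in the sums (members 1 higher), 1280 and 1146 after labelling (members 9 and 9), 440 lower at 3.92, 1203 and 1441 at 7.85 (members 22 and 2), 1161 and 1212 at 17.9 (5 members lower), and 1 member higher from 7.85 to 17.9. With all 42 libraries in 1 fit there were 595 and 451 genes after labelling (12 members lower), 129 lower at 3.92, 387 and 479 from 7.85 to 17.9 (members 0 and 5), and 752 and 604 at 57.7 (15 members higher). For half-life, 22 genes were longer by the exponential and 3 by the line without its last point. The causes were not tested.

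With 1 culture left out, genes called ran from 20 to 252 higher and 1 to 7 lower unlabelled, and from 48 to 460 and 2 to 14 in the sums, with 0 members. After labelling they ran from 20 to 770 and 14 to 680 (members 0 to 8 and 0 to 8), at 3.92 from 296 to 555 and 130 to 492 (members 4 to 12 higher), at 7.85 from 510 to 1088 and 384 to 958 (members 8 to 15), and at 17.9 from 294 to 1100 and 339 to 1047 (members 2 to 11 and 0 to 3). From 7.85 to 17.9 they ran from 534 to 829 and 525 to 692 (members 0 to 2 and 8 to 11), and at 57.7 from 141 to 469 and 199 to 425 (members 1 to 9 and 0 to 1). Half-lives gave 0 by the line and 0 to 12 longer by the exponential. Depth limits TRP3 most, with 26 reads in its lowest library.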
